A study of Mus musculus with 20 samples.

Results

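The 20 breast tumors of the series were ordered by a score of hypoxia-regulated transcripts, and the 6 highest tumors (high-score group) were compared with the 6 lowest (low-score group), 12 tumors of 20 in all. The score of a tumor was the mean, over Car9, Ankrd37, Egln3, Ndrg1 and Vegfa, of the gene's z-score across the 20 tumors on the log2(CPM + 1) scale, where CPM is the count of a gene scaled to a common library total. The tumors were thus chosen by the measured levels of these 5 genes. The overlapping genes Yam1 and AY036118, which lie on a ribosomal RNA locus, were left out of the totals. Each tumor came from a different female F1 mouse of the cross [BALB/c-neuT x FVB/J], in which an activated rat neu (Her2) transgene drives breast tumors without further treatment. All 20 tumors therefore shared the cross and the transgene. There was no normal tissue. The labels set the 12 tumors apart by the names Lo and Hi, whose meaning is not given in the sources used here. Each label also holds a number before and a number after Lo or Hi, with no stated meaning. The high-score group held 3 Lo and 3 Hi tumors and the low-score group 2 Lo and 4 Hi tumors. RNA was taken from a piece of frozen tumor, so each value sums the cancer cells and all other cells of that piece. Fewer cells of a type and less RNA per cell cannot be told apart in such samples. Oxygen was not measured, and the groups are named by their score.

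Cells sense oxygen through prolyl hydroxylases (Egln1, Egln2 and Egln3), which mark the alpha subunits of the hypoxia-inducible factor (HIF) for capture by Vhl and destruction. When oxygen is short, the alpha subunits (Hif1a, Epas1, Hif3a) accumulate, pair with Arnt and bind DNA at a short core, ACGTG or GCGTG. Known targets bring glucose into the cell, run glycolysis, export lactate, remove mitochondria, modify collagen and attract vessels, and Egln1 and Egln3 are themselves targets. In solid tumors such genes are known for high expression in poorly perfused areas.

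The score chose the groups, so its genes are described without a test. Car9, a carbonic anhydrase of the cell surface, had 34.6 CPM in the lowest, 41.4 in the median and 46.8 in the highest high-score tumor, and 22.1, 26.1 and 34.4 CPM in the low-score tumors. Ankrd37, a small ankyrin repeat protein, had 13.4, 14.2 and 15.5 CPM against 4.81, 6.85 and 8.50 CPM. Egln3, a prolyl hydroxylase, had 423, 455 and 589 CPM against 305, 337 and 418 CPM. For Egln3 and Car9 the lowest high-score tumor lay only just above the highest low-score tumor. Ndrg1, a growth-arrest and stress gene, had 172, 236 and 288 CPM against 66.2, 118 and 165 CPM. Vegfa, the main vessel growth factor, had 155, 207 and 297 CPM against 90.3, 104 and 125 CPM. None of the 5 genes overlapped between the groups, which the choice of tumors largely fixes. Across the 20 tumors, the pairwise Pearson's r of the 5 genes ran from 0.42 (Car9 with Ankrd37) to 0.75 (Car9 with Vegfa), as a description over libraries that share their scaling.

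The score ran from 1.17 in Lo 8 to 0.65 in Hi 11 within the high-score group and from -0.44 in Hi 2 to -1.49 in Hi 3 within the low-score group. The first tumors outside were Hi 4 at 0.43 and Lo 4 at -0.28. The step below the high-score group was wider than any step inside it. The widest step of the whole order lay inside the low-score group, between Lo 7 at -0.55 and Hi 5 at -1.14. Scores from log2(CPM + 0.1) or from TMM-normalized CPM (TMM corrects for library composition) chose the same 12 tumors. With the ribosomal RNA locus kept in the totals, or with Car9 or Ndrg1 left out of the score, Lo 4 replaced a tumor of the low-score group. With Egln3 left out, Hi 4 entered the high-score group and Lo 4 the low-score group.

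**Figure D1:**
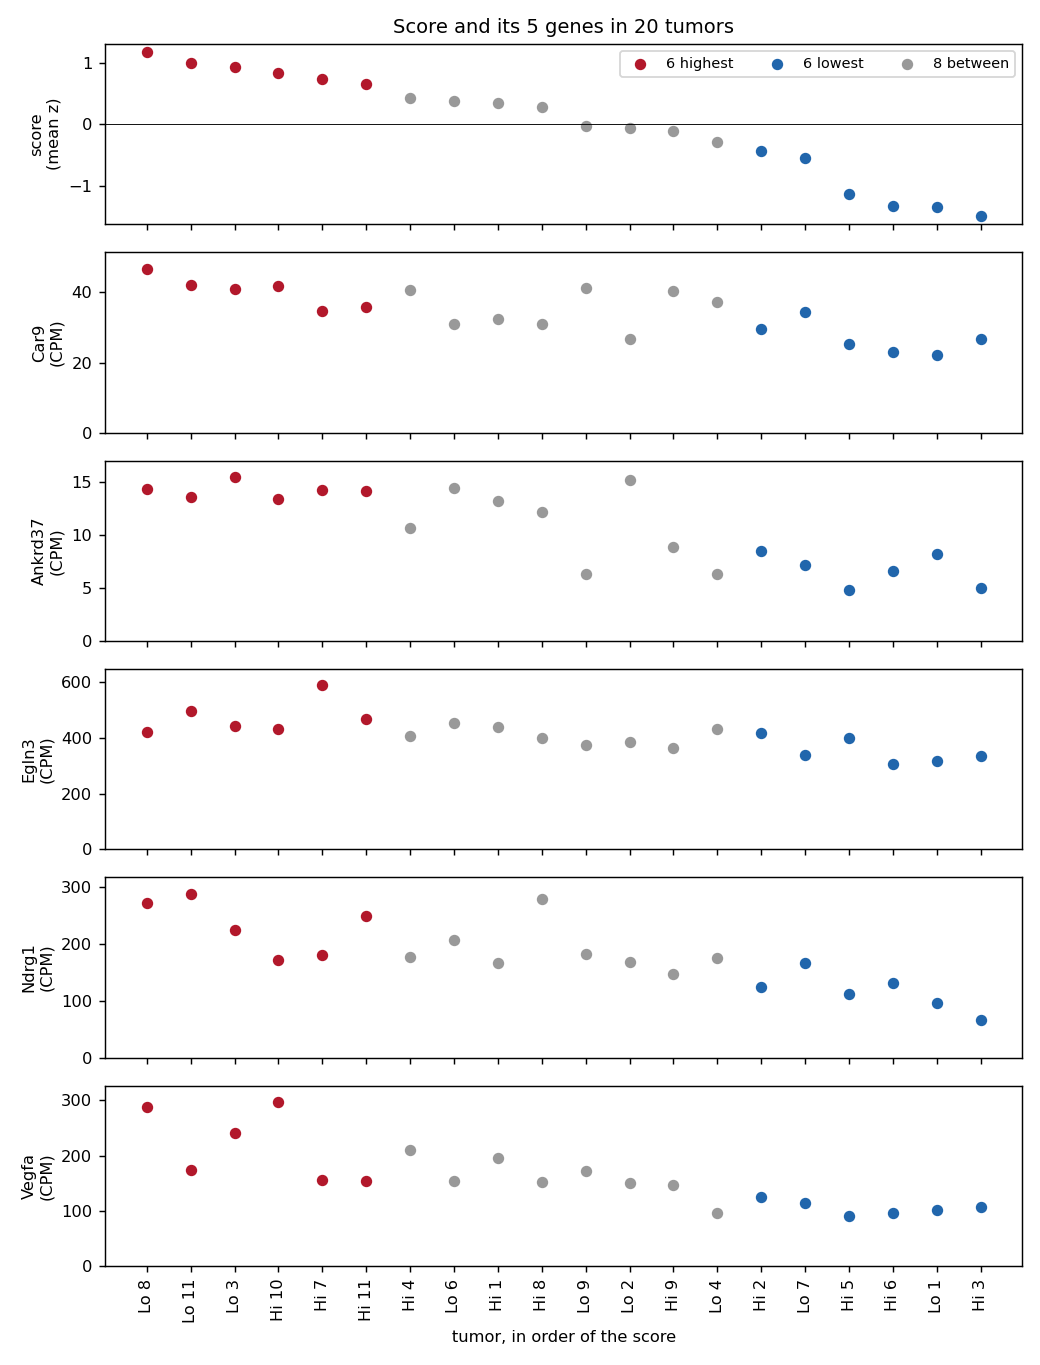
The score (mean z-score, top) and the CPM of each of its 5 genes (the other 5 panels, axes from 0) are plotted for the 20 tumors in order of the score, with the 6 highest in red, the 6 lowest in blue and the 8 others in grey. The score falls from 1.17 to -1.49, with its widest step inside the low-score group, and Ankrd37 spans 4.81 to 15.5 CPM.

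The library measures overlapped between the groups. Total counts over the 20 tumors ran from 38765682 to 65465755 per library. The total count (exact permutation p = 0.537), the share of the ribosomal RNA locus (15.1% ± 4.08 against 13.2% ± 4.16, SD, n = 6 each, exact permutation p = 0.452) and the number of genes detected (exact permutation p = 0.381) had an adjusted p of 0.537 over these 3 measures. The tumors expressed epithelial markers strongly, Krt18 (a keratin of luminal cells) with 612 to 1300 CPM in the 12 tumors. Erbb2, the mouse counterpart of the transgene, had 203, 241 and 287 CPM in the high-score tumors and 201, 233 and 255 CPM in the low-score tumors (log2 fold change 0.06, adjusted p = 0.839, edgeR).

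The HIF core is shown first in the promoters of 6 genes that were higher in the high-score group, with the RefSeq sequence of GRCm38.p6 (the build equal to mm10) over the 250 bases before the transcript start, read 5′ to 3′ on the gene's strand. Capitals mark ACGTG or GCGTG on either strand, so that CACGT and CACGC are cores read from the other strand. Egln1 and Bnip3 stand for oxygen sensing and mitochondrial removal, Slc2a1, Pgk1 and Ldha for glucose use, and Gpi1 is shown as a gene of the same pathway with no core in this window.
Egln1, chr8:124949255-124949504, minus strand: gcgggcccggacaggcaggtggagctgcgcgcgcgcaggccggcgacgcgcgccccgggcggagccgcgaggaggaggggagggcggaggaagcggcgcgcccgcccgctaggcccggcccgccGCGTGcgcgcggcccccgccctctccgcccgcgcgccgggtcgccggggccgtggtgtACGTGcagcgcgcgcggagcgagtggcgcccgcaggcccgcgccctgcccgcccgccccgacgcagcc
Bnip3, chr7:138909507-138909756, minus strand: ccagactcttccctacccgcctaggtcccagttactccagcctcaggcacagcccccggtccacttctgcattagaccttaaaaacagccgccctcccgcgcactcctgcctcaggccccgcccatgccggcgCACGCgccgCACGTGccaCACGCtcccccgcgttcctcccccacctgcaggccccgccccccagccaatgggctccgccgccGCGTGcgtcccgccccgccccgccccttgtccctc
Slc2a1, chr4:119108495-119108744, plus strand: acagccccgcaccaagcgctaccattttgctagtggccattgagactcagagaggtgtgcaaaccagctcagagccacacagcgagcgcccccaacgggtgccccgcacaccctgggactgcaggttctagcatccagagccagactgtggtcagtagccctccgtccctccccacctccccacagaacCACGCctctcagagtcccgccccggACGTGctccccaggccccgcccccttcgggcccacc
Pgk1, chrX:106186850-106187099, plus strand: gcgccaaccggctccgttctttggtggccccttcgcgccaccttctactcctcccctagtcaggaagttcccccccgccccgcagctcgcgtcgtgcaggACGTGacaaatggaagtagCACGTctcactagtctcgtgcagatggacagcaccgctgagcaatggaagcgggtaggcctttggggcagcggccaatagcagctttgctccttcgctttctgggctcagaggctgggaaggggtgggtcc
Ldha, chr7:46845554-46845803, plus strand: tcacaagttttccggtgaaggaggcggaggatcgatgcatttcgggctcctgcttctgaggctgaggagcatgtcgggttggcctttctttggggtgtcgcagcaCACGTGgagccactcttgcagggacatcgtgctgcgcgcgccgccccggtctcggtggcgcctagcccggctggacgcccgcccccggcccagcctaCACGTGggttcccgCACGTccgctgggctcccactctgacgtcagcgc
Gpi1, chr7:34230337-34230586, minus strand: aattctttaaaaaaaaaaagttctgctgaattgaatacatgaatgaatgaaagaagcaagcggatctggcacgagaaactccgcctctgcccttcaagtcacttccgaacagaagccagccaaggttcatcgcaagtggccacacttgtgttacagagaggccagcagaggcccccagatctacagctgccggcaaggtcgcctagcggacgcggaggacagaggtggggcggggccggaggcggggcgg
The Bnip3 window held 5 cores, 2 of them forming 1 CACGTG read on both strands, and the Ldha window also 5, with 2 such palindromes. Egln1, Slc2a1 and Pgk1 held 2 each. Another listed start of Ldha, not shown, held 1 core.

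Across all other genes, edgeR's quasi-likelihood test called 201 of 18835 genes (1.07%) at an adjusted p under 0.05, 110 higher (0.584%) and 91 lower (0.483%) in the high-score group. The CPM of the 6 tumors of each group did not overlap for 168 genes higher (0.892%) and 144 genes lower (0.765%). At an unadjusted p under 0.05, 1241 genes were higher (6.59%) and 1512 lower (8.03%). These shares are the background for the unadjusted counts of the gene lists below. The p-values take the groups as given, although the order of the tumors came from the same libraries. The median log2 fold change over all tested genes was -0.01. Of the 110 higher genes 95 were protein-coding, and 8 were processed pseudogenes or transcribed processed pseudogenes, whose reads may belong to near-identical parent genes.

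Oxygen sensing itself was represented by 1 called gene of 11, where 0.584% of all genes were higher. At an unadjusted p under 0.05, 5 of the 11 were higher and 0 lower, against 6.59% and 8.03% of all genes. Egln1 (ENSMUSG00000031987, Chr8 124908596 to 124949254, mm10), the main prolyl hydroxylase of HIF1A, had 120, 131 and 149 CPM in the lowest, median and highest high-score tumor and 66.7, 71.3 and 80.2 CPM in the low-score tumors. Every high-score tumor was above every low-score tumor, a 1.81-fold difference (log2 0.86, standard error 0.0744, adjusted p = 0.000148, edgeR), the lowest adjusted p of the genes named here. Hif1a, the oxygen-labile subunit, had 180, 237 and 252 CPM against 139, 172 and 215 CPM, with overlapping groups (log2 0.41, adjusted p = 0.0842). It passed the threshold without Lo 8 (adjusted p = 0.0328) and without Hi 3 (adjusted p = 0.0343). Epas1, the HIF2 alpha subunit that is strong in endothelium, had 33.7, 48.3 and 62.8 CPM against 42.8, 49.2 and 57.1 CPM (log2 -0.04, adjusted p = 0.93). The median log2 fold change of the 11 genes was 0.29, and 10 of the 11 were above 0. The largest, 1.05, belonged to an uncalled gene. DESeq2 called 4 of the 11 higher, with Hif1a, Vhl and Cited2 beside Egln1.

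Glucose uptake, glycolysis and lactate export moved together. Of 25 tested genes 13 were higher and 0 lower, where 0.584% of all genes were higher, and the list's median log2 fold change was 0.54 against -0.01 over all genes. For 12 of the 25 the groups did not overlap, all higher in the high-score group (0.892% of all genes), and 24 of 25 had a positive log2 fold change, Pfkfb4 (-0.14) being the exception. DESeq2 called 18 of them higher, with Hk2 and Pdk1 among them.

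At the entry of the pathway, Slc2a1, the glucose transporter GLUT1, had 101, 123 and 151 CPM (lowest, median and highest) in the high-score tumors and 62.5, 75.9 and 91.0 CPM in the low-score tumors (log2 0.71, adjusted p = 0.00915). The groups were apart, although Slc2a1 lies on Chr4, the chromosome whose genes tended to be lower in the high-score group, as described below. Hk2, the hexokinase that traps glucose, had 37.1, 47.1 and 67.0 CPM against 19, 31.9 and 36.5 CPM. Its groups did not overlap either, but its adjusted p was 0.0521 (log2 0.71), and it passed without Lo 8 (0.0487), Hi 7 (0.042) or Hi 6 (0.0363). Gpi1, the isomerase of the next step, had 846, 932 and 1025 CPM against 535, 598 and 663 CPM (1.56-fold, log2 0.64, adjusted p = 0.00208). Pfkfb3, which makes the activator of phosphofructokinase, had 42.7, 50.5 and 76.1 CPM against 17.4, 31.4 and 38.6 CPM, and the groups were apart (log2 0.85, adjusted p = 0.0261). Its call was lost without Hi 10 (0.0514) or Hi 2 (0.0511).

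The middle and lower steps of glycolysis were also higher. Tpi1 had 700, 956 and 1005 CPM against 462, 533 and 656 CPM (log2 0.74, adjusted p = 0.00621). Gapdh, often used as a reference gene, had 664, 799 and 854 CPM against 378, 459 and 573 CPM, a 1.70-fold difference with no overlap (log2 0.76, adjusted p = 0.00377). Pgk1, which makes the first ATP of the pathway, had 241, 309 and 369 CPM against 146, 180 and 248 CPM and 1 low-score tumor lay above the lowest high-score tumor (log2 0.70, adjusted p = 0.0189). Pgam1 had 345, 373 and 432 CPM against 225, 257 and 271 CPM (log2 0.57, adjusted p = 0.00323), and its processed pseudogene Pgam1-ps2, which may share its reads, was also called (log2 0.52). Eno2, an enolase better known from neurons, had 17, 20.3 and 26.3 CPM against 5.41, 10 and 12.5 CPM (2.23-fold, log2 1.16, adjusted p = 0.0117).

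At the exit, Pkm, the pyruvate kinase, was the most abundant called gene of the list per length, at a mean of 1120 CPM per kilobase of listed length in the high-score group and 865 in the low-score group. It showed the smallest called change of the list (log2 0.37, adjusted p = 0.0346), at 2661, 2891 and 3036 CPM against 2102, 2254 and 2379 CPM, groups that did not overlap. Ldha, which turns pyruvate into lactate, had 869, 1146 and 1282 CPM against 668, 749 and 889 CPM with a slight overlap (log2 0.54, adjusted p = 0.026). Slc16a3, the lactate exporter MCT4, had 11.7, 17.4 and 22.9 CPM against 4.69, 8.03 and 11.3 CPM, groups that were just apart (2.24-fold, log2 1.16, adjusted p = 0.0189). Bsg, the partner that carries MCT4 to the membrane, was also higher (log2 0.84). It is outside the lists and was chosen after its values were seen. Pdk1, which keeps pyruvate out of mitochondria, had 46.3, 48.9 and 69.9 CPM against 28.1, 35.7 and 48.5 CPM and missed the threshold (log2 0.51, adjusted p = 0.0983).

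Glycogen genes went the same way. Gys1, glycogen synthase, had 78.5, 108 and 140 CPM against 66.0, 71.0 and 82.7 CPM (log2 0.59, adjusted p = 0.0334), and Gbe1, the branching enzyme, had 28.8, 33.3 and 45.1 CPM against 16.7, 22 and 25.3 CPM with the groups apart (log2 0.68, adjusted p = 0.0136). Of the 13 called genes of the pathway, 9 kept their call in each of the 12 fits that left out 1 tumor. Besides Pfkfb3, the call of Ldha was lost without Lo 11 (0.0549), Lo 3 (0.0617), Hi 5 (0.0555) or Lo 1 (0.0523). The call of Pkm was lost in 8 of the 12 fits (Lo 11, Lo 3, Hi 7, Hi 2, Lo 7, Hi 5, Lo 1 or Hi 3 left out), with adjusted p-values between 0.0511 and 0.0772, and that of Gys1 in 7 (Lo 11, Lo 3, Hi 10, Hi 2, Lo 7, Hi 5 or Hi 3), between 0.0511 and 0.0743.

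**Figure D2:**
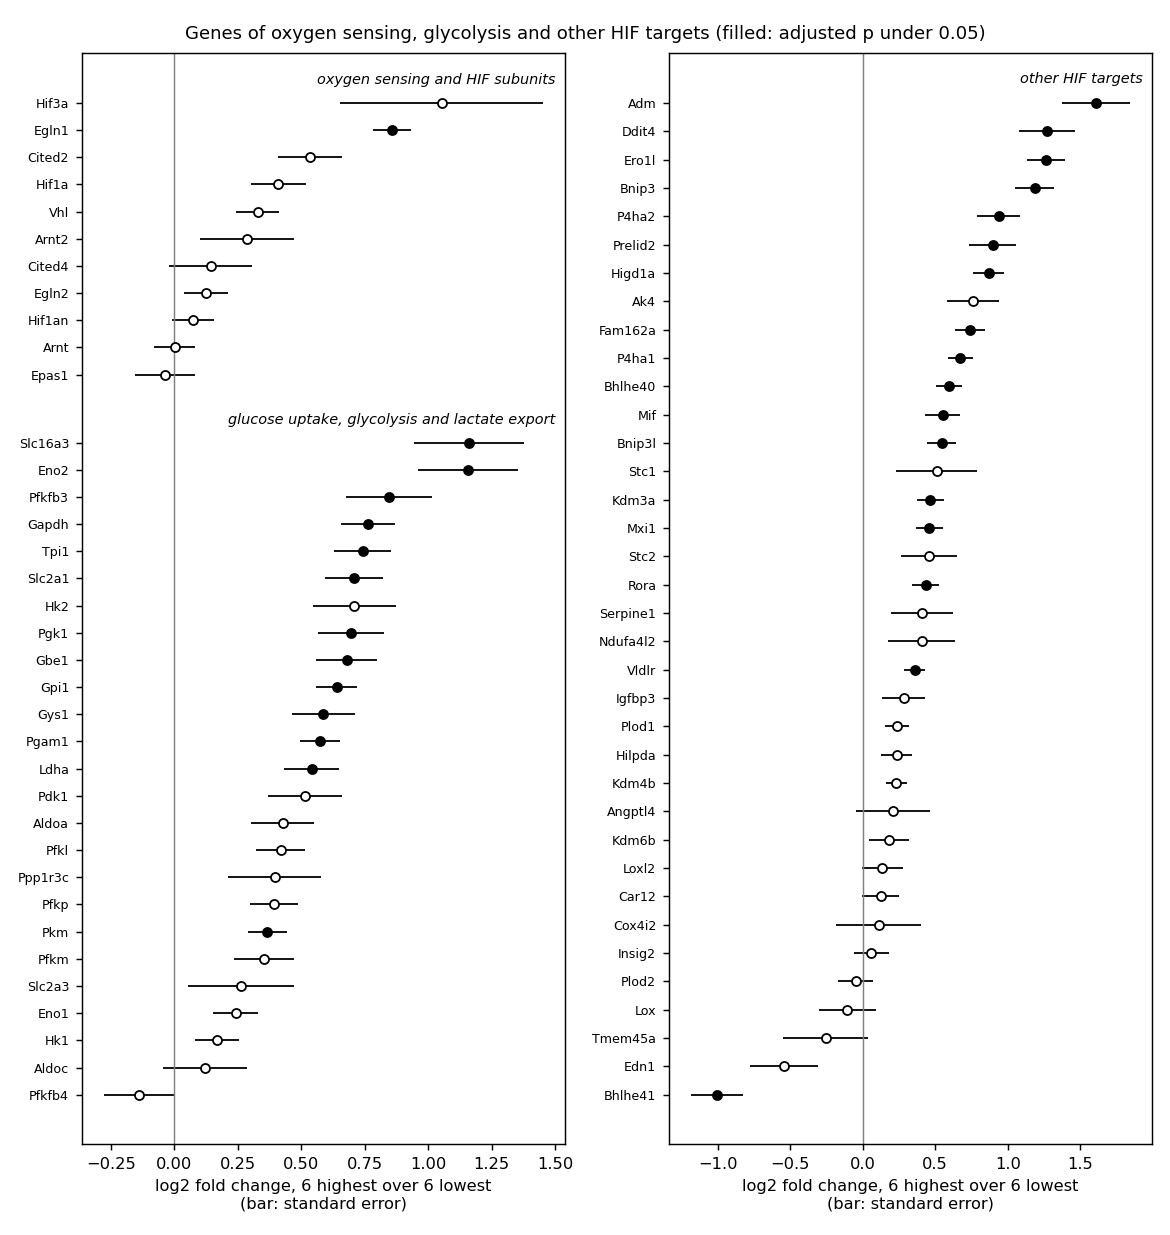
Each point is the log2 fold change of a gene, 6 highest over 6 lowest tumors, with its standard error as a bar, for the lists of oxygen sensing and glycolysis (left) and other HIF targets (right). Filled points passed an adjusted p of 0.05. The glycolysis genes sit between -0.14 and 1.16 with 24 of 25 above 0, and Bhlhe41 at -1.0 is the only filled point below 0.

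Other known HIF targets gave 16 higher and 1 lower gene of 36, where 0.584% of all genes were higher and 0.483% lower, with a median log2 fold change of 0.42 against -0.01 over all genes. Groups did not overlap for 13 of the 36, all higher in the high-score group, as for 0.892% of all genes.

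Genes of mitochondrial removal and of mitochondrial adaptation were among them. Bnip3, a receptor that hands mitochondria to autophagy, had 92.2, 113 and 140 CPM in the high-score tumors and 39.0, 44.8 and 67.6 CPM in the low-score tumors (2.27-fold, log2 1.19, adjusted p = 0.00108). Its relative Bnip3l had 159, 202 and 214 CPM against 117, 125 and 161 CPM, with overlap (log2 0.54, adjusted p = 0.0166). Higd1a and Fam162a, small mitochondrial proteins, were 1.82-fold and 1.67-fold higher with no overlap (log2 0.87 and 0.74). Mgarp, a mitochondrial transport protein outside the lists, had the largest increase by the naming rule, at 6.44, 8.92 and 11.8 CPM against 1.52, 2.87 and 3.85 CPM (3.33-fold, log2 1.74, adjusted p = 0.00256). Prelid2, of the PRELI family of mitochondrial lipid carriers, rose by 0.90 on the log2 scale. Mif, a cytokine, had 143, 180 and 191 CPM against 89.3, 123 and 153 CPM (log2 0.55, adjusted p = 0.0411).

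The other called targets included Ero1l, P4ha1, P4ha2 and Adm. Ero1l, the oxidase that forms disulfide bonds in the endoplasmic reticulum, had 328, 430 and 581 CPM against 165, 176 and 235 CPM (2.40-fold, log2 1.26, adjusted p = 0.000856). P4ha1 and P4ha2, subunits of collagen prolyl hydroxylase, had log2 fold changes of 0.67 and 0.94, and neither overlapped between the groups. The collagen genes Col1a1, Col1a2 and Col3a1, by contrast, belong to the fibroblast list, all members of which had negative log2 fold changes. Adm, the vasodilator peptide adrenomedullin, had 17.9, 27.1 and 41.9 CPM against 4.80, 9.37 and 12.1 CPM (3.05-fold, log2 1.61, adjusted p = 0.00596). Efna3, an ephrin ligand outside the lists, had 5.33, 8.09 and 14.4 CPM against 2.70, 3.15 and 3.29 CPM (3.06-fold, log2 1.61, adjusted p = 0.00208), and its low-score tumors were close together.

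Regulators formed the remaining group. Ddit4, an inhibitor of mTORC1 signaling, had 55.3, 99.9 and 161 CPM against 37.5, 42.2 and 47.8 CPM (2.41-fold, log2 1.27, adjusted p = 0.00657), and its high-score tumors were spread more widely than its low-score tumors. Kdm3a, a histone demethylase, and Mxi1, a MYC antagonist, were higher by 0.47 and 0.46 on the log2 scale. The 2 DEC repressors went in opposite directions, Bhlhe40 higher at 387, 448 and 521 CPM against 267, 292 and 340 CPM (log2 0.60, adjusted p = 0.00605) and Bhlhe41 lower at 29.3, 39.6 and 64.1 CPM against 56.2, 86.2 and 110 CPM (log2 -1.0, adjusted p = 0.014). Nfil3, a circadian repressor outside the lists, was 2.36-fold higher with no overlap (log2 1.24, adjusted p = 0.00657). Rora, a nuclear receptor of the same clock, was 1.35-fold higher (log2 0.43), and Vldlr, a lipoprotein receptor, 1.28-fold (log2 0.36).

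Of the 17 called genes of the other targets, 12 kept their call in all 12 fits that left out 1 tumor. Kdm3a lost it without Lo 3 (0.0513) or Hi 5 (0.0516), Vldlr without Lo 11 (0.054), Lo 3 (0.0604) or Hi 7 (0.0554), and Mxi1 without Lo 11 (0.0596), Lo 3 (0.0706) or Lo 1 (0.0582). Rora lost it in 8 fits (Lo 11, Lo 3, Hi 10, Hi 7, Hi 2, Lo 7, Hi 5 or Lo 1 left out, adjusted p from 0.0527 to 0.073) and Mif in 9 (Lo 8, Lo 11, Lo 3, Hi 7, Hi 11, Hi 2, Lo 7, Hi 5 or Hi 3, from 0.0505 to 0.0846). Among the 19 uncalled genes of the list were Stc1, Lox, Loxl2 and Angptl4, with log2 fold changes of 0.51, -0.11, 0.14 and 0.21.

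**Figure D3:**
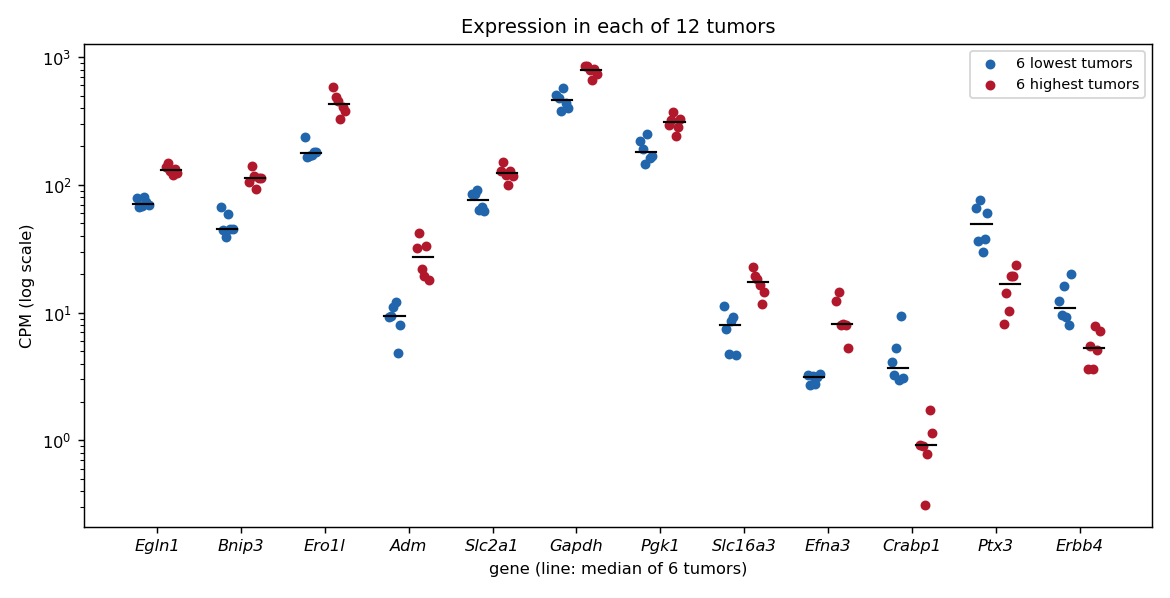
The CPM of 12 genes (log axis) is plotted for each of the 6 highest (red) and 6 lowest tumors (blue), with the median of each group as a line. Egln1 lies at 120 to 149 CPM against 66.7 to 80.2 CPM, while Crabp1, Ptx3 and Erbb4 lie lower in the high-score tumors.

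No vessel gene passed the test. Of 18 angiogenic ligands and receptors edgeR called 0 (5 higher and 1 lower at an unadjusted p under 0.05, and 2 higher and 1 lower with DESeq2, a second count test), with a median log2 fold change of 0.04. The list leaves out Vegfa, which chose the groups. Angpt2, the vessel-destabilizing ligand, had 3.97, 5.49 and 7.45 CPM against 2.62, 3.48 and 4.76 CPM (log2 0.69, adjusted p = 0.102). Angpt1, its stabilizing counterpart, had 4.45, 5.78 and 8.08 CPM against 7.98, 9.45 and 15.9 CPM (log2 -0.76, adjusted p = 0.0625), and it passed without Hi 11 (0.0414). Of the 10 endothelial markers 0 were called by edgeR, by DESeq2 or at an unadjusted p under 0.05 (median log2 -0.03, range -0.14 to 0.19). Vwf, of endothelial granules, had 1.27, 2.36 and 3.38 CPM against 0.964, 2.11 and 2.81 CPM, and Eng, a TGF-beta co-receptor, had 19.2, 36.7 and 46.0 CPM against 23.4, 32.9 and 69.7 CPM, with both groups overlapping.

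Several other programs that hypoxia is known to touch showed few or no calls by edgeR. Of 24 cell cycle genes 0 were called (1 lower at an unadjusted p under 0.05, 0 with DESeq2, median log2 -0.02), Mcm6 and Ccne2 having log2 fold changes of -0.29 and -0.28. The 75 nuclear respiratory chain genes had 0 called (6 higher and 3 lower unadjusted, 0 with DESeq2) and a median of 0.05, with Uqcrh at -0.29 and Ndufv3 at 0.29. The 16 genes of the unfolded protein and amino acid stress response had 0 called (2 higher unadjusted, and 2 with DESeq2) and a median of 0.08, with Ddit3 at 0.48 (adjusted p = 0.139) and Trib3 at 0.45 (adjusted p = 0.0833, and 0.0457 without Lo 1). Iron handling had 0 of 10 called (2 higher and 1 lower unadjusted, 1 higher with DESeq2), and Fth1, the ferritin heavy chain, had a log2 fold change of 0.53 (adjusted p = 0.0766, and 0.0356 without Hi 6) and Tfrc, the transferrin receptor, at 0.42 (adjusted p = 0.195). Among 24 genes of sterol and fatty acid synthesis 1 was lower, the fatty acid elongase Elovl6, at 27.0, 35.4 and 41.8 CPM against 43.6, 48.9 and 66.2 CPM (log2 -0.56, adjusted p = 0.0344), and 21 of the 24 were below 0 (median -0.12). At an unadjusted p under 0.05, 5 of the 24 were lower and 0 higher, and DESeq2 called Elovl6 and Acaca lower. The call of Elovl6 was lost in 9 of 12 fits (all but those without Lo 11, Hi 6 or Lo 1), with adjusted p up to 0.0908. Of 14 immediate early genes 1 was higher, Ier3, at 297, 358 and 430 CPM against 229, 252 and 292 CPM (log2 0.49, adjusted p = 0.0212, and 0.0506 without Hi 2). Unadjusted, 3 of the 14 were higher and 0 lower, and DESeq2 called Ier3 alone.

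Of the markers of fibroblasts and leukocytes 1 passed the test. All 10 fibroblast markers had negative log2 fold changes (median -0.48). At an unadjusted p under 0.05, 7 of the 10 were lower, against 8.03% of all genes, and DESeq2 called 1. Pdgfra, a receptor of fibroblasts, was called lower, at 9.48, 13.9 and 17.6 CPM against 19.4, 21 and 29.5 CPM (log2 -0.77, adjusted p = 0.0316). Its call was lost without Lo 8 (0.0567), Lo 3 (0.0617), Hi 10 (0.06), Hi 5 (0.0798) or Hi 3 (0.0656). The summed level of the fibroblast list ranged from 851 to 1736 CPM in the high-score and from 1275 to 2510 CPM in the low-score tumors. Of 10 tested leukocyte markers (12 listed) 0 were called by edgeR, and Ptprc was lower with DESeq2. At an unadjusted p under 0.05, 7 of the 10 were lower, again against 8.03% of all genes. Below 0 were 8 of the 10 (median -0.33), with summed levels of 148 to 241 CPM against 209 to 258 CPM. Among macrophage markers 0 of 10 were called (3 lower unadjusted, 0 with DESeq2, median -0.23), with Aif1 at -0.41 and Fcgr1 at -0.36. The 7 tested T cell markers were all below 0 (median -1.12, 0 called, 3 lower unadjusted, 0 with DESeq2) at summed levels of 3.51 to 7.51 CPM against 6.16 to 10.4 CPM. Cd3e had a log2 fold change of -1.18 (adjusted p = 0.221, and 0.0214 without Hi 11), Cd3g -1.35, Cd3d -1.69 and Cd8a -1.12, none above 1.17 CPM in any of the 12 tumors. Whether these cells have a part in the calls above was not tested beyond fits with a list's mean z-score as a covariate. The leukocyte score ran from -1.30 to 0.29 in the high-score and from 0.06 to 1.23 in the low-score tumors. It overlapped little between the groups, so a fit with both separates them poorly. With the leukocyte score in the fit 5 genes were higher (Egln1, Ero1l, Bhlhe40, Efna3 and Nfil3) and 0 lower, at a median of 0.65 over the 110 genes. With the fibroblast score 61 genes were higher and 15 lower, of which 36 were among the 110 and 10 among the 91. The median over the 110 genes was 0.67 in that fit, as without the score, and 3 of the glycolysis genes were called in place of 13. All 110 higher and all 91 lower genes kept their sign in both fits.

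Interferon-stimulated genes, muscle, blood and fat markers gave 0 calls by edgeR and by DESeq2. Their counts at an unadjusted p under 0.05 stand beside 6.59% higher and 8.03% lower over all genes. All 12 interferon-stimulated genes were below 0 (median -0.76, 4 lower at an unadjusted p under 0.05), led by Lo 1 of the low-score group, where Oasl2 had 169.8 CPM and Ifit3 54.4 CPM (log2 -1.0 and -0.84, adjusted p = 0.315 and 0.449). All 6 skeletal muscle markers were below 0 (median -3.82, 6 lower unadjusted), with summed levels of 1.73 to 63.4 CPM against 3.17 to 1025 CPM. Myh4 and Tnnt3 were highest in Hi 6, at 295 and 142 CPM (adjusted p = 0.142 and 0.183). Erythroid markers (0 unadjusted) had a median of 0.36, with Alas2 at 0.60 (adjusted p = 0.412, and 0.048 without Hi 6) and Hbb-bs at 0.55. Adipocyte markers (0 unadjusted) had a median of 0.22, with Cidec at 0.86 and Cfd at 0.79. Of 5 tested neutrophil markers edgeR called 0 and DESeq2 1, S100a8, at 1.02 (adjusted p = 0.0965 with edgeR), while Mmp9 was at -0.32, and neither exceeded 4.95 CPM in any of the 12 tumors.

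Epithelial markers gave 0 calls of 10 by edgeR or DESeq2 (2 lower unadjusted, median 0.06), with Krt18 at 0.31 (adjusted p = 0.35) and Krt19 at -0.83 (adjusted p = 0.259, and 0.0261 without Lo 11). Of 8 tested myoepithelial and basal markers 0 were called by edgeR (2 lower unadjusted, and Oxtr and Trp63 with DESeq2, median -0.20). Oxtr, the oxytocin receptor of myoepithelium, was at -1.11 (adjusted p = 0.0614) and passed without Hi 11 (0.0282), Hi 6 (0.028) or Hi 3 (0.0435), and Trp63, the basal transcription factor, at -0.82 (adjusted p = 0.0939) passed without Hi 11 (0.0487). Of 8 milk genes 0 were called (1 lower unadjusted, 0 with DESeq2, median -0.10), with Lalba at -1.02 (adjusted p = 0.168, and 0.00913 without Hi 11) and Csn1s1 at -0.46 (adjusted p = 0.818). Nuclear-retained RNA, which can reflect RNA quality or nuclear content, gave 0 calls of 5 (0 unadjusted, 0 with DESeq2), with Meg3 at -0.55 and Malat1 at -0.11.

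Of the driver's 5 genes only Erbb4 was called (2 lower at an unadjusted p under 0.05, and Erbb4 alone with DESeq2). Erbb4, a receptor that pairs with Erbb2, was lower at 3.60, 5.28 and 7.93 CPM against 7.98, 11 and 20.3 CPM, groups that just missed each other (2.29-fold lower, log2 -1.19, adjusted p = 0.0335). Its call was lost in 7 of the 12 fits that left out 1 tumor (Lo 8, Lo 11, Lo 3, Hi 7, Hi 2, Hi 5 or Hi 3), with adjusted p from 0.059 to 0.0864.

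Further genes with large increases had various roles. Espn, an actin-bundling protein that lies on Chr4, had 29.0, 36.3 and 59.1 CPM against 8.71, 16.6 and 21.1 CPM (2.41-fold, log2 1.27, adjusted p = 0.00967). Mmp12, the macrophage elastase, had 5.39, 8.46 and 11.1 CPM against 2.48, 3.55 and 4.97 CPM (log2 1.17, adjusted p = 0.014), while 0 of the 10 macrophage markers were called. Atg9b, of autophagosome formation, was 2.39-fold higher (log2 1.26, adjusted p = 0.0431). Its call was lost in 8 of 12 fits (all but those without Lo 8, Lo 3, Hi 11 or Hi 6), with adjusted p up to 0.0908.

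The strongest decreases were of genes of varied function. Crabp1, a retinoic acid binding protein, had 0.313, 0.918 and 1.72 CPM against 2.96, 3.66 and 9.41 CPM (4.89-fold lower, log2 -2.29, adjusted p = 0.00828). Rdh12, a retinol dehydrogenase, was 2.57-fold lower (log2 -1.36, adjusted p = 0.0368), but its call was lost in 7 fits (Lo 8, Lo 11, Lo 3, Hi 10, Hi 2, Lo 7 or Hi 5 left out, adjusted p up to 0.086). Ptx3, a secreted pentraxin of innate immunity, had 8.19, 16.8 and 23.7 CPM against 29.8, 49.2 and 76.0 CPM, groups that were apart (3.22-fold lower, log2 -1.69, adjusted p = 0.00967). Tpm2, a tropomyosin of contractile cells on Chr4, had 7.43, 14.5 and 21 CPM against 30.7, 33.1 and 97.4 CPM (log2 -1.59, adjusted p = 0.0221), the highest in Hi 6, the tumor with the most muscle transcripts. Its adjusted p ran from 0.00816 to 0.0494 over the 12 fits that left out 1 tumor. Dpysl5 (log2 -1.45), a protein of neurite outgrowth, Extl1 (-1.34), a heparan sulfate enzyme on Chr4, Plekha6 (-1.26) and Pkp1 (-1.20), a plakophilin of desmosomes, kept their calls in all 12 fits. Adamtsl2 (-1.26), a matrix protein that binds latent TGF-beta binding proteins, lost it without Lo 3 (0.0511), Hi 7 (0.0533) or Lo 7 (0.058).

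The lower genes were concentrated on Chr4. Of the 91 lower genes 40 lay there (44.0%), where 1167 tested genes lie, so that 3.43% of Chr4 genes were lower and 4 were higher. On all other chromosomes together, 106 of 17668 genes were higher and 51 lower. The median log2 fold change of Chr4 was -0.25, against 0.00 for all other chromosomes. Chr1 held 0 of the higher and 9 of the lower genes, Erbb4, Plekha6 and Pkp1 among them, at a median of -0.10.

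The expression level of whole chromosomes was then measured in each tumor, a measure and test that were not planned in advance. The dosage of a chromosome is the median over its genes (mean of at least 5 CPM) of log2 expression relative to the median tumor, minus the same median over all autosomes. Chr4 dosage over 757 genes was -0.08 ± 0.0564 (SD, n = 6) in the high-score group, from -0.18 to -0.02, and 0.15 ± 0.120 (SD, n = 6) in the low-score group, from 0.00 in Hi 6 to 0.37 in Hi 5. The groups did not overlap (difference -0.23, exact permutation p = 0.00216, the smallest that 6 against 6 allows, adjusted p = 0.0433 over 20 chromosomes). The chromosome with the next lowest p was Chr8 (difference 0.02, exact permutation p = 0.0281, adjusted p = 0.281). Chr1, at -0.08, was lower by a larger difference but with wide spread (exact permutation p = 0.255). Copy number was not measured in these counts, and the Chr4 level of the tumors and their score cannot be told apart in this design. From karyotypes of cells cultured from tumors, the paper reports loss of a Chr4 copy in all examined tumors of this cross. Its karyotype table counts loss of the whole or a part of Chr4, and a figure legend names loss or gain. In the sequenced tumors the paper reports Chr4 alleles skewed toward FVB. Whether Chr4 copy number differed between the groups was not tested. With Chr4 dosage as a covariate, a fit added after the Chr4 share was seen, 0 genes passed (1164 at an unadjusted p under 0.05), and the median log2 fold changes were 0.53 over the 110 higher genes, 0.33 over the glycolysis list and -0.37 over the 91 lower genes. All 110 higher and 90 of the 91 lower genes kept their sign in it.

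**Figure D4:**
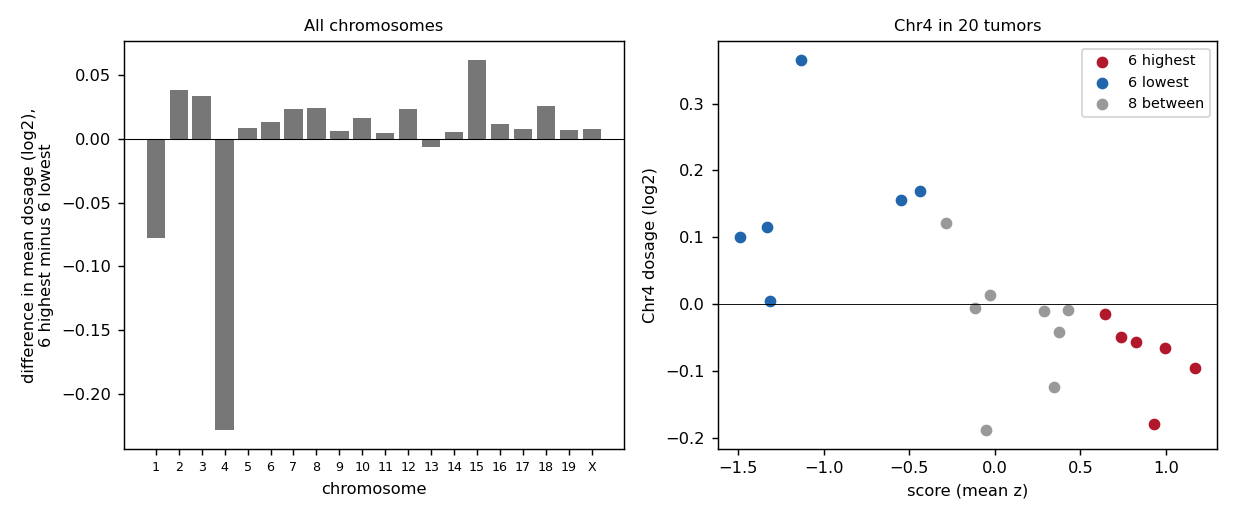
Left, the difference in mean dosage (log2) between the 6 highest and 6 lowest tumors is a bar for each chromosome, drawn from 0. Right, Chr4 dosage is plotted against the score for 20 tumors, with the 6 highest in red (-0.18 to -0.02), the 6 lowest in blue (0.00 to 0.37) and the 8 others in grey.

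The 8 tumors between the groups had no part in the comparison and gave a look at the same genes in other libraries, although their scores span only 0.43 to -0.28. In an edgeR fit with the score as a number, 0 of 19475 genes passed (0.0%), and 1044 had an unadjusted p under 0.05. Of the 110 genes higher in the high-score group, 101 had a positive slope on the score in these 8 tumors, and of the 91 lower genes 81 had a negative slope, where 52.5% of all genes had a positive slope. For lower genes off Chr4 the count was 46 of 51, and for those on Chr4 35 of 40. Among the glycolysis genes 24 of 25 slopes were positive and among the other HIF targets 26 of 36. Fibroblast markers were negative in 10 of 10, skeletal muscle markers in 6 of 6 and interferon-stimulated genes in 12 of 12, the sign of their fold changes in the 12 tumors. Other lists turned. Slopes were positive for 0 of 8 adipocyte markers (7 of 8 positive fold changes in the 12 tumors), 0 of 5 erythroid markers (5 of 5), 4 of 7 T cell markers (0 of 7) and 6 of 8 milk genes (1 of 8). Ero1l, at 0.04 per unit of score, and Rora, also at 0.04, were nearly flat, while Pfkfb3 (1.37), Nfil3 (1.13) and Efna3 (1.1) were steep. Crabp1 (0.24), Erbb4 (0.21) and Plekha6 (0.18) had slopes against their direction in the 12 tumors. These counts are descriptions, since genes in 1 set of 8 libraries are not independent.

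**Figure D5:**
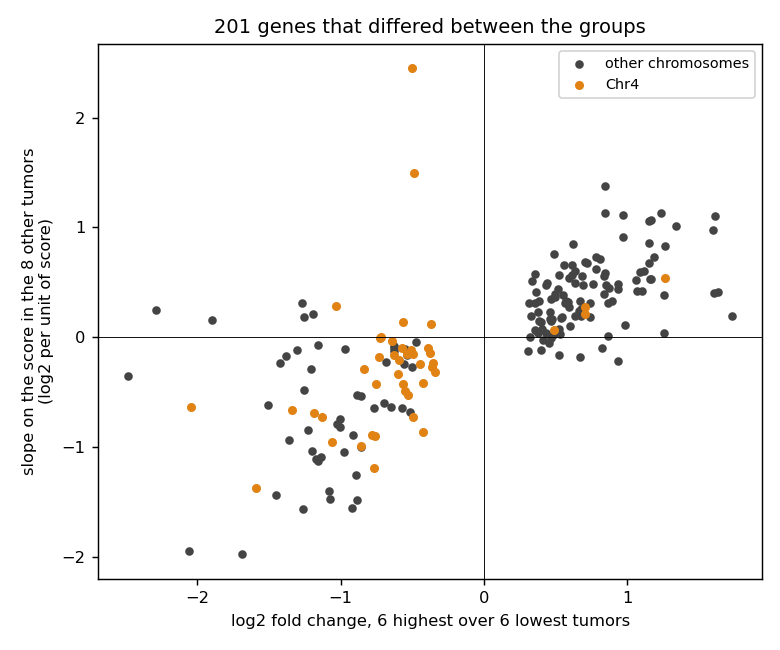
Each point is 1 of the 201 called genes, with its log2 fold change in the 12 tumors on the x axis and its slope on the score in the 8 other tumors (log2 per unit of score) on the y axis, Chr4 genes in orange. Of the higher genes 101 of 110 lie above 0, and of the lower genes 81 of 91 lie below 0.

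The promoters shown earlier were part of a count over all genes with a promoter in the RefSeq table (250 bases before to 50 after the start, either strand). ACGTG was in 51.0% of 98 promoters of higher genes (77 of 110 genes matched), 19.7% of 76 promoters of lower genes (69 of 91 matched), 23.9% of 14907 promoters of all tested genes and 19.6% of all 32851 promoters. GCGTG was in 53.1%, 46.1%, 47.5% and 32.4% of them, and the palindrome CACGTG, which holds ACGTG on both strands, in 11.2%, 9.21%, 9.30% and 7.15%. The median GC content was 62.7%, 57.0%, 60.0% and 52.7%. Of the called HIF-list genes higher in the high-score group, Prelid2 was left out of the count, and 26 of the rest matched the table. Of these, 19 (73.1%) had either core in the 250 bases before the start of at least 1 listed transcript. The other 7 did not (Eno2, Gbe1, Gpi1, Gys1, Mif, Tpi1 and Vldlr). By the same rule, with no such omission, 58.3% of 11726 tested genes, 77.9% of 77 higher genes and 52.2% of 69 lower genes had either core. This was a smaller contrast than that of ACGTG alone. A match is a description of letters and not of binding.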

How the data were processed

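The authors sequenced TruSeq mRNA libraries of 20 tumors in paired-end reads, trimmed them and used MapRseq (TopHat) to place them on mm10. The processing notes of the submitters name TopHat2 2.0.12 and featureCounts 1.4.4. The annotation release and the strand setting are not given in the sources used here, so genes that overlap, antisense genes and genes with a near-identical copy are uncertain. The authors deposited raw counts per gene, not normalized, for 43346 genes, with 1 column per tumor and nothing pooled.

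Yam1 and AY036118 were removed before library sizes. Genes were kept with filterByExpr, and the groups were compared with edgeR 4.0.16 (TMM, quasi-likelihood test, Benjamini-Hochberg adjustment over all tested genes at 0.05) in R 4.3.3, with the 5 score genes untested. DESeq2 1.42.0 was an alternative. CPM of single genes are TMM-normalized, and those of the score genes and of summed lists use the totals alone. Library measures and chromosome dosage were compared with two-sided exact permutation tests over 924 splits. Scripts used Python 3.11.15, numpy 2.4.6 and pandas 2.3.3. Levels per kilobase use the length listed for each gene in the file. Coordinates are those of the file (mm10), and biotypes are from GENCODE.

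The groups, members and gene lists were chosen with earlier results of these data known. Named genes were the score genes, all called genes of the oxygen sensing, glycolysis, other HIF target and angiogenic lists, up to 4 called genes of any other list or else its 2 largest changes, 11 fixed genes, and per direction the 10 largest changes among called genes above a mean log2 CPM of 1 with groups that did not overlap. On simulated counts of 18840 genes for the comparison of 6 against 6 tumors, 80 of 100 genes changed by a log2 of 1 and 21 of 100 changed by 0.5 were recovered, and 4 unchanged genes were called. Alternatives changed the normalization, filter, totals, tool, tumors included, covariates, score genes and group size. The Chr4 covariate and the count without Chr4 were added after the data were seen. Chromosome dosage per tumor and its permutation tests were also outside the plan, which held chromosome medians without a test.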

Additional observations from a re-analysis of the deposited data

Results flagged for a closer look

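Of 190 groups of 6 tumors, Dixon's criterion flags about 9.5 if values are normal and independent, which CPM of related genes need not be. In 25 groups 1 tumor stood apart from the other 5. Hi 6 of the low-score group was apart in 7 of them, with 295 CPM for Myh4 and 142 CPM for Tnnt3 (next highest 23.9 and 7.92 CPM), 97.4 CPM for Tpm2, 9.95 CPM for Alas2, 125 CPM for Hbb-bs, 2343 CPM for Fth1 and 2.72 CPM for Mmp9. Lo 11 of the high-score group was apart for Myh4 (9.31 CPM), Tnnt3 (6.86 CPM), Krt19 (63.3 CPM), Mmp9 (3.02 CPM) and Nfil3 (12.3 CPM). Lo 1 of the low-score group was apart for Oasl2 (169.8 CPM), Ifit3 (54.4 CPM), Crabp1 (9.41 CPM) and, at the low end, Rora (38.6 CPM). Hi 11 of the high-score group was apart for Lalba (227 CPM), Csn1s1 (1375 CPM) and Cd3e (0.590 CPM). Lo 8 of the high-score group was apart for Ifit3 (22.5 CPM), Atg9b (13.7 CPM) and, at the low end, Vldlr (177 CPM). Hi 5 of the low-score group was apart for Rdh12 (22 CPM) and, at the low end, Atg9b (1.66 CPM). Hi 2 of the low-score group was apart for Ero1l (235 CPM), still below the lowest high-score tumor (328 CPM).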

How the results depend on the processing

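The 110 higher and 91 lower genes became 375 and 383 with DESeq2, 104 and 229 without TMM factors, 61 and 15 with the fibroblast score (36 and 10 of them shared), 5 and 0 with the leukocyte score, 93 and 47 with the adipocyte score, 128 and 149 with the cell cycle list, and 0 and 0 with Chr4 dosage as a covariate (added). They became 191 and 156 with the score as a number over 20 tumors, 220 and 123 for 10 against 10 tumors, 19 and 9 for 4 against 4, 66 and 45 for groups from a score without Car9 or without Ndrg1, and 52 and 71 without Egln3. Leaving out 1 tumor at a time gave 76 to 167 higher (lowest without Hi 5, highest without Hi 6) and 32 to 222 lower genes (lowest without Hi 2 or Hi 5, highest without Hi 6). Without Lo 3 there were 41 lower genes, without Lo 7 46, without Lo 1 53, without Hi 7 58 and without Hi 11 154. Counting no Chr4 genes left 106 and 51. Whether the shared numbers in the sample names pair the tumors is not stated. The correlation of deviations was 0.17 for number 3, -0.22 for number 7 and -0.002 for number 11, too few pairs to decide it. With the number as a replicate block 0 and 0 genes passed at 2 residual degrees of freedom (1270 at an unadjusted p under 0.05). All 110 and 91 genes kept their sign in that fit. Why the counts moved was not tested. In the 8 middle tumors 0 genes passed, and 3 with no filter on low counts (Gm13022, Gm13237 and Gm15295). Between 707 and 1293 genes had an unadjusted p under 0.05 when 1 of the 8 was left out, and 0 passed.

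No called gene named here reversed in any fit, but 16 uncalled genes did. The log2 fold change of Vwf was -0.10 with the replicate block, -0.063 for the score without Car9 or Ndrg1 and -0.10 without Egln3. Eng reversed with the fibroblast score (0.20), the leukocyte score (0.60), Chr4 dosage (0.80), the numeric score (0.038) and 10 against 10 (0.15), and ranged from -0.23 to 0.15 with 1 tumor left out. Epas1 reversed with the fibroblast score (0.14), the leukocyte score (0.26), Chr4 dosage (0.29), the numeric score (0.032) and 10 against 10 (0.13), and ranged from -0.13 to 0.046. Csn1s1 reversed with the leukocyte score (0.28), Chr4 dosage (0.38), 10 against 10 (0.52) and the score without Egln3 (0.29), and ranged from -1.50 to 0.012. Malat1 reversed with the numeric score (0.0012), 4 against 4 (0.19) and the score without Egln3 (0.37), Car9 or Ndrg1 (both 0.00029), and ranged from -0.24 to 0.035. With the leukocyte score Fcgr1 (0.045), Mmp9 (0.15), Oasl2 (0.068) and Ifit3 (0.18) reversed, with the fibroblast score Mmp9 (0.23) and Meg3 (0.078), and with Chr4 dosage Lalba (0.095) and Cd8a (0.091). For the score without Egln3, Cidec (-0.069), Cfd (-0.14) and Hbb-bs (-0.12) reversed, as did Cidec (-0.37) for 10 against 10 and Erbb2 (-0.13) with the replicate block.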
